A study of Mus musculus with 6 samples.

Results

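The genes described here are 44 genes of DNA replication and S-phase entry, out of 24346 gene symbols in the deposited tables. These 44 were chosen by symbol for their known roles, with earlier results of these data known. They were measured in primary stromal cells grown out of the prostates of C57BL/6 mice aged 8 to 12 weeks, in medium with 1e-10 M dihydrotestosterone. Cells of the vector group carried the lentiviral vector FU-CGW, and cells of the S37A group carried that vector with a cDNA of β-catenin in which serine 37 is alanine, a form that escapes the phosphorylation that marks β-catenin for breakdown. There were 3 libraries in each group, and the comparison asks which transcripts differ between them. Nothing in the labels ties a library to its own culture or mouse, and the p-values therefore reflect variation among these 6 samples that could be technical. The cells were a mixed primary culture, kept for their fast attachment to collagen-coated plates. Each library is total RNA of a whole dish, so fewer cells in S phase and less RNA per cell cannot be told apart.

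All 44 genes were in the tables, and 42 of them had a mean of at least 0.5 FPKM (a fragment count corrected for transcript length and for sequencing depth) over the 6 libraries and were tested. The exceptions were E2f2, at a mean of 0.131 FPKM, and Rfc4, listed at 0 in every library. The depth of a library, inferred from the widths of the deposited confidence intervals, was 40.1 to 50.3 M fragments. At that depth a tested member other than Ccne2 rested on between 39 and 6579 fragments in a library, and these figures cover counting error only. The introduced gene was higher in S37A: Ctnnb1, which encodes β-catenin, stood at 110.4 ± 9.79 FPKM in vector and 140.8 ± 7.73 FPKM in S37A (SD, n = 3; limma adjusted p = 0.0158, and up to 0.0618 over the alternatives). Axin2, a Wnt feedback gene, stood at 0.131 ± 0.0385 and 2.95 ± 0.296 FPKM (limma adjusted p = 3.85e-05). The stromal identity of the cells was visible in both groups, with the summed level of 10 stromal markers at 11022 to 11393 FPKM in vector and 12519 to 12613 FPKM in S37A. All 10 had a positive difference. At a limma adjusted p under 0.05, 4 were higher in S37A and 0 lower, where 6.06% of all genes tested were higher and 19.9% lower.

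DNA replication begins when the origin recognition complex, with the loading factors Cdc6 and Cdt1, places rings of MCM proteins on DNA, a step called licensing. In S phase Cdc45 and the GINS complex turn these rings into moving helicases, and polymerases, the sliding clamp PCNA and its loader RFC copy the DNA behind them. Many of the genes are transcribed mainly in dividing cells, under transcription factors of the E2F family that the retinoblastoma protein holds back and cyclin-dependent kinases release.

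Almost the whole set was lower in cells with S37A β-catenin. Of the 42 members tested, 35 were lower and 0 were higher in S37A at a limma adjusted p under 0.05, or 83.3% of them lower, where 19.9% of all 12022 genes tested were lower and 6.06% higher. At an unadjusted limma p under 0.05 the numbers were 40 lower and 0 higher, but the share of all genes at that threshold was not counted. The fitted difference was negative for all 42 members and for 8353 of the 12022 genes tested. Its median over the members was -0.42 on the log2(FPKM + 1) scale, against -0.07 for all genes. The S37A level of the 35 lower members ran from 47.9% of the vector mean, for the helicase factor Mcm10, to 85.2%, for the clamp-loader gene Rfc2. For 36 of the 42 members all S37A libraries lay below all vector libraries, which was the case for 36.5% of all genes tested. An exact two-sided permutation test of a single member that separates the groups this way gives p = 0.1, the smallest possible with 3 libraries against 3.

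**Figure D1:**
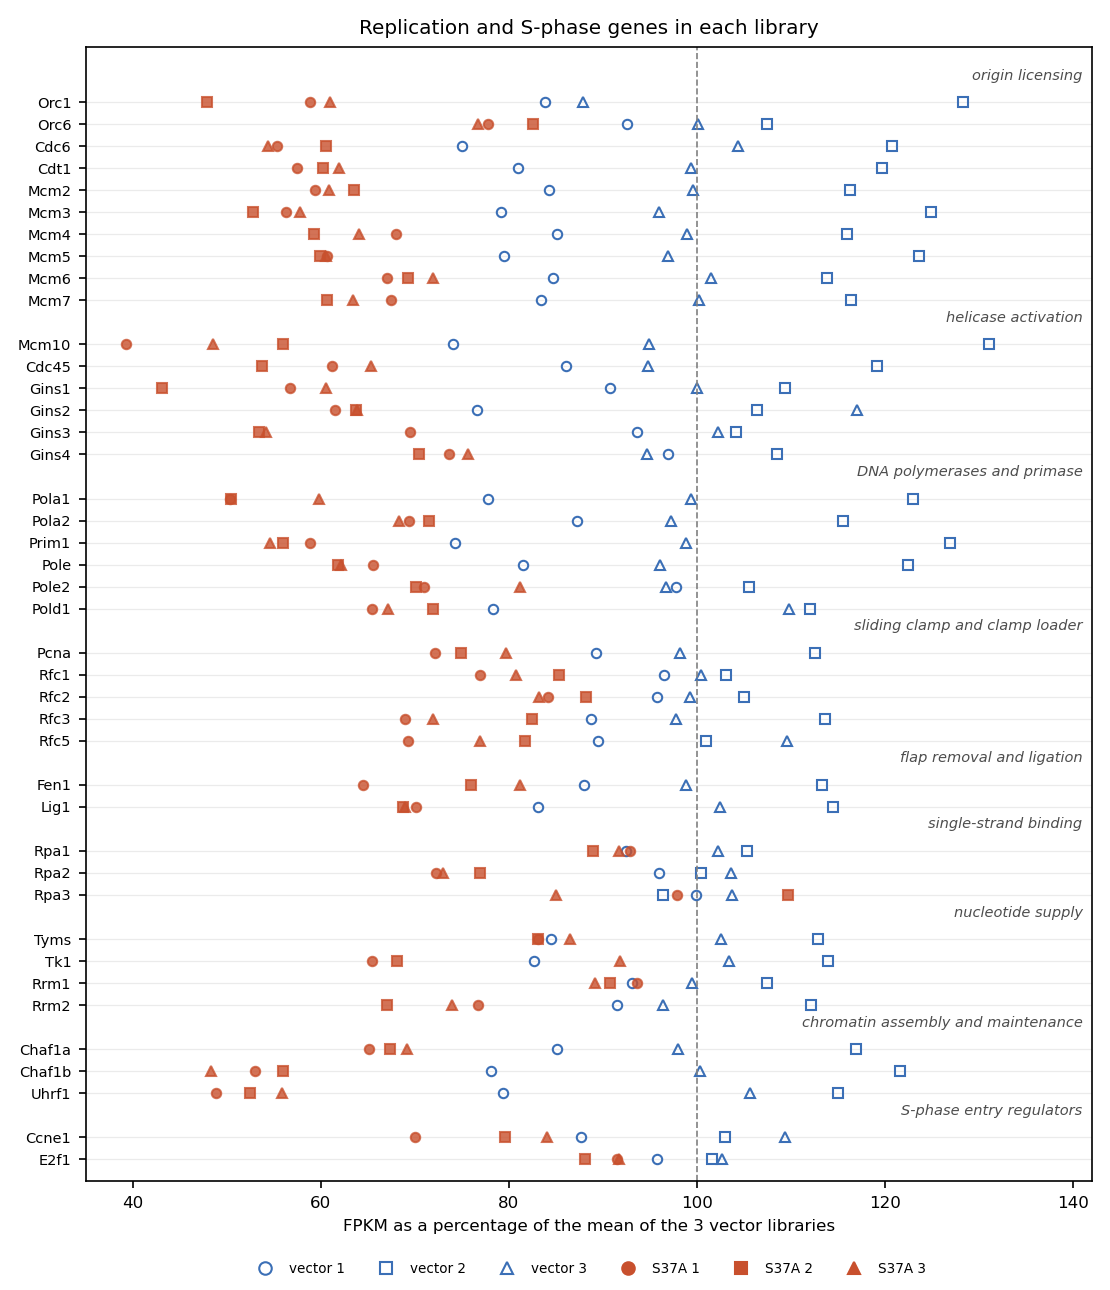
FPKM of 41 members in each library, as a percentage of that member's mean over the 3 vector libraries (horizontal axis), with members grouped by role (vertical axis); open blue symbols are vector libraries and filled orange symbols S37A libraries, with 1 symbol shape per replicate number. Rfc4, Ccne2 and E2f2 are left out; most members have all S37A symbols to the left of all vector symbols, while Rpa1, Rpa3, Tyms, Tk1 and Rrm1 overlap.

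The member promoters were searched for short words of the kind that E2F factors bind. The words searched, on both strands, were TTTCCCGC, TTTCGCGC, TTTGCCGC and TTTGGCGC, in RefSeq windows of GRCm38.p6 that reach from 250 bases before to 50 bases after a gene's start. For 37 of the 44 members a window was found, with 43 windows in all. At least 1 of the words was in 15 of these windows (34.9%), against 3.83% of 11609 windows of the genes tested and 2.26% of all 32851 windows. The share was not particular to the members: of 47 windows of other replication genes, a list described further below, 13 held such a word (27.7%). TTTCCCGC was in 6 member windows, TTTCGCGC and TTTGGCGC in 7 each and TTTGCCGC in 0. On opposite strands 2 words can overlap, as they do in the windows of Mcm5 and Mcm6. A match is a run of letters and not a measured binding site. The stretches below, 5′ to 3′ on the gene's strand with the words in capitals, are shown for 2 subunits of the MCM ring and for the catalytic subunit of polymerase α, because they lie before the gene in both RefSeq and GENCODE.

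Mcm5, chr8:75109336-75109387, plus strand: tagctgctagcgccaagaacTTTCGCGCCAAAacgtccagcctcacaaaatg

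Mcm6, chr1:128359725-128359835, minus strand: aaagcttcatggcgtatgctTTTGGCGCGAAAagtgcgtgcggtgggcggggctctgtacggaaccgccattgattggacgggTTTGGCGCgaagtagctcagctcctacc

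Pola1, chrX:93632266-93632313, minus strand: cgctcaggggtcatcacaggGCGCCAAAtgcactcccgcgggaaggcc

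The 14 tested members with such a word in a window were all lower in S37A, with a median log2 difference of -0.47 and a range from -0.73 to -0.25. Of the 21 tested members whose windows held none, 15 were lower, with a median of -0.36 and a range from -0.69 to -0.04. The ranges overlap widely, and the difference between these sets was not tested. The word TTTGAA, the core of the CHR element known from promoters of mitotic genes, was in 11.6% of member windows, 11.8% of windows of all genes tested and 73.3% of 30 windows of mitosis genes, which held an E2F-type word in 3.33%.

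**Figure D2:**
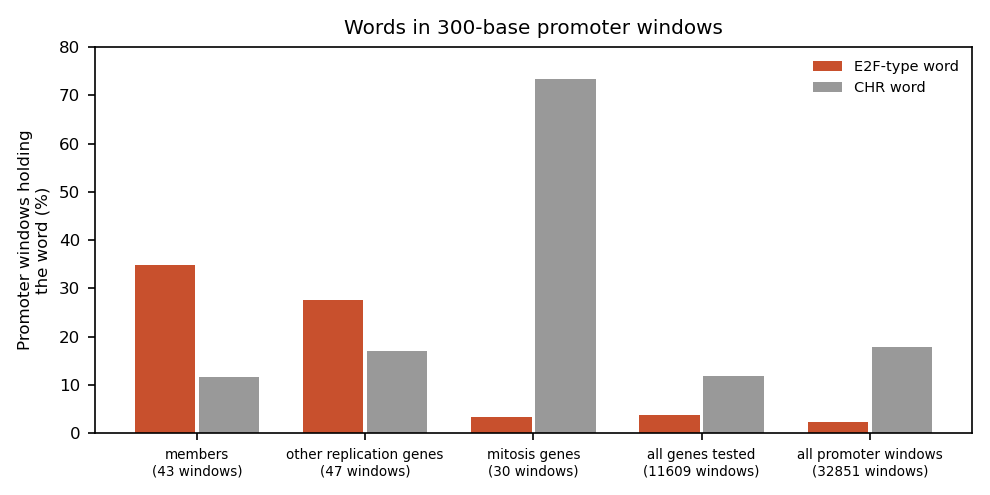
Share of promoter windows, in percent, that hold an E2F-type word (orange) or the CHR word (grey), for members, other replication genes, mitosis genes, all genes tested and all windows. The E2F-type bar is tallest for the members at 34.9%, followed by other replication genes at 27.7%. The CHR bar is tallest for mitosis genes at 73.3%.

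Licensing genes were lower without exception: 10 of 10 passed, at a median of 60.8% of the vector level. Mcm3, a subunit of the MCM ring on chromosome 1 (20802968 to 20820312, mm10, minus strand), had the largest log2 difference among the members that passed. Its vector libraries read 8.82, 13.9 and 10.7 FPKM, and its S37A libraries 6.28, 5.89 and 6.45 FPKM. The S37A values were close together and all under the lowest vector value, while vector replicate 2 stood well above vector replicate 1. On the log2(FPKM + 1) scale Mcm3 differed by -0.73 (SE 0.14, limma adjusted p = 0.0127).

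The other MCM subunits had the same order of vector libraries. Mcm2 was at 9.50, 13.1 and 11.2 FPKM in vector and 6.70, 7.17 and 6.86 FPKM in S37A (log2 difference -0.62, SE 0.10, limma adjusted p = 0.00919). Mcm4 was at 11.8, 16.0 and 13.7 FPKM in vector and 9.39, 8.19 and 8.85 FPKM in S37A (limma adjusted p = 0.0108). Mcm5 was at 4.72, 7.35 and 5.76 FPKM in vector and 3.61, 3.56 and 3.597 FPKM in S37A (limma adjusted p = 0.0177). None of these genes had a vector library within the range of the S37A libraries. Mcm6, the most abundant of the licensing genes, was at 14.6, 19.5 and 17.4 FPKM in vector and 11.5, 11.9 and 12.4 FPKM in S37A (log2 difference -0.48, SE 0.09, limma adjusted p = 0.0145). Mcm7 was at 9.14, 12.7 and 10.98 FPKM in vector and 7.39, 6.64 and 6.95 FPKM in S37A (limma adjusted p = 0.0123). The products of these genes form a ring with 1 copy of each subunit, yet the vector means of the 6 transcripts spanned 2.89-fold, from Mcm5 to Mcm6, while their S37A levels lay in the narrow range of 55.6% to 69.4% of vector. Mcm5 has 2 transcript models, and its difference was 0.06 (SE 0.74, limma adjusted p = 0.963) when the more abundant model replaced their sum.

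Among the factors that load the ring, Cdt1 (chromosome 8, 122568015 to 122573554, plus strand) was at 5.79, 8.55 and 7.10 FPKM in vector and 4.10, 4.30 and 4.43 FPKM in S37A. Its log2 difference was -0.61 (SE 0.11, limma adjusted p = 0.0125), and the groups did not overlap. Cdc6, the ATPase that works with Cdt1, was low in both groups, at 0.858 ± 0.199 and 0.487 ± 0.0287 FPKM (limma adjusted p = 0.0326). Of the origin-recognition subunits, Orc1 stood at 55.9% and Orc6 at 79.0% of the vector level (limma adjusted p = 0.0245 and 0.0133). Gmnn, which encodes the Cdt1 inhibitor geminin and is not among the 44, stood at 66.3% of its vector level (limma adjusted p = 0.0188, and up to 0.0613 over the alternatives).

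Of the helicase activators, 6 of 6 were lower, at a median of 59.5% of the vector level. Gins2 was at 11.1, 15.4 and 16.9 FPKM in vector and 8.88, 9.20 and 9.22 FPKM in S37A (log2 difference -0.59, SE 0.13, limma adjusted p = 0.0203). Here vector replicate 3 was the highest library, unlike in the MCM genes. Gins4, the most abundant of these genes, was at 16.5, 18.5 and 16.2 FPKM in vector and 12.6, 12.0 and 12.9 FPKM in S37A (log2 difference -0.42, SE 0.06, limma adjusted p = 0.00625). The groups were apart for both. Gins1 and Gins3 were far less abundant, at vector means of 2.05 and 1.47 FPKM, so that the 4 GINS transcripts spanned 11.6-fold, and they stood at 53.4% and 59.0% of vector in S37A (limma adjusted p = 0.00799 and 0.00996). Cdc45, the partner of GINS and MCM in the active helicase, fell from 4.03 ± 0.690 to 2.42 ± 0.237 FPKM (limma adjusted p = 0.0125). Mcm10, which helps to start the helicase, fell from 1.40 ± 0.404 to 0.671 ± 0.117 FPKM (limma adjusted p = 0.0237), the largest relative fall among the 41 members above 0 in every library.

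All polymerase and primase genes among the members were lower, 6 of 6. Prim1, the catalytic subunit of primase on chromosome 10 (128015168 to 128030037, plus strand), was at 3.13, 5.34 and 4.16 FPKM in vector and 2.48, 2.36 and 2.30 FPKM in S37A (log2 difference -0.60, SE 0.14, limma adjusted p = 0.0224). Pola2, an accessory subunit of polymerase α and the most abundant of these genes, was at 5.24, 6.95 and 5.85 FPKM in vector and 4.17, 4.30 and 4.10 FPKM in S37A (log2 difference -0.43, SE 0.08, limma adjusted p = 0.0152). In both genes the highest library was vector replicate 2, and S37A lay below every vector library. Pola1, the catalytic subunit of polymerase α, stood at 53.5% of vector. Pole and Pole2, catalytic and accessory subunits of the leading-strand polymerase ε, stood at 63.2% and 74.1%, and Pold1, the catalytic subunit of polymerase δ, at 68.2% of vector (limma adjusted p = 0.0162 for Pola1, 0.0262 for Pole, 0.0202 for Pole2 and 0.0310 for Pold1).

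The clamp, the 4 measured subunits of its loader and the 2 enzymes that finish lagging-strand fragments were all lower, at 69.3% to 85.2% of the vector level. Pcna, on chromosome 2 (132249162 to 132253314, minus strand), was at 28.6, 36.1 and 31.5 FPKM in vector and 23.1, 24.0 and 25.6 FPKM in S37A (log2 difference -0.38, SE 0.08, limma adjusted p = 0.0177). The highest S37A library was under the lowest vector library. The loader subunits Rfc1, Rfc2, Rfc3 and Rfc5 stood at 81.0%, 85.2%, 74.5% and 76.0% of vector, each with a limma adjusted p from 0.0125 to 0.0269. Rfc1 is the large subunit of the replicative loader, and the smaller subunits also serve in alternative loaders. Rfc4, the remaining subunit, was listed at 0 in all 6 libraries. Its exons overlap Eif4a2 on the other strand, and a listed 0 in these tables can be a failed estimate, so nothing is said of its level. Fen1, the flap nuclease, was at 5.96, 7.68 and 6.70 FPKM in vector and 4.37, 5.15 and 5.51 FPKM in S37A (log2 difference -0.37, SE 0.10, limma adjusted p = 0.0324). The gap between the groups of Fen1 was narrow, from 5.51 to 5.96 FPKM, and over the alternatives its limma adjusted p ran from 0.0209 to 0.120. Lig1, the ligase that seals the fragments, stood at 69.3% of vector (limma adjusted p = 0.0203).

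Of 3 single-strand binding genes 1 was lower, and of 4 nucleotide-supply genes 1 was lower. Rpa1, the largest subunit of the RPA complex that coats unwound DNA, was at 34.2, 39.0 and 37.8 FPKM in vector and 34.4, 32.9 and 33.9 FPKM in S37A and did not pass (log2 difference -0.13, SE 0.05, limma adjusted p = 0.102). Rpa3, the smallest subunit, was at 10.7, 10.4 and 11.2 FPKM in vector and 10.5, 11.8 and 9.15 FPKM in S37A and did not pass either (log2 difference -0.04, SE 0.08, limma adjusted p = 0.735). Its sign turned to 0.03 with median-ratio scaling, 0.02 with quantile normalization and 0.05 without S37A replicate 3. Rpa2, the middle subunit, was at 5.14, 5.37 and 5.55 FPKM in vector and 3.87, 4.11 and 3.91 FPKM in S37A, with a clear gap (log2 difference -0.36, SE 0.05, limma adjusted p = 0.00557). This was the smallest adjusted p of any member. In vector the RPA transcripts spanned 6.91-fold in level.

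Ribonucleotide reductase makes the deoxynucleotides, and 1 of its 2 subunit genes passed; the difference between them was not tested. Rrm2, the subunit whose amount is known to be limited to dividing cells, was at 33.8, 41.4 and 35.6 FPKM in vector and 28.4, 24.8 and 27.3 FPKM in S37A (log2 difference -0.45, SE 0.08, limma adjusted p = 0.0123). Rrm1, the more stable large subunit, was at 28.3, 32.7 and 30.2 FPKM in vector and 28.5, 27.6 and 27.1 FPKM in S37A and did not pass (log2 difference -0.13, SE 0.05, limma adjusted p = 0.114). The S37A values of Rrm1 reached into the vector range, and those of Rrm2 did not. Thymidylate synthase, Tyms, stood at 84.2% and thymidine kinase, Tk1, at 75.1% of vector, and neither passed (limma adjusted p = 0.131 and 0.0892). S37A replicate 3 was the library of Tk1 that reached into the vector range, at 4.23 FPKM. Tyms has a near-identical pseudogene in the tables, Tyms-ps, at a mean of 1.31 FPKM, and how its reads were divided between the pair is uncertain.

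The 3 genes that act on chromatin behind the fork were all lower, and Uhrf1 and Chaf1b were among the 10 largest falls. Uhrf1, which brings the maintenance methyltransferase to newly copied DNA, was at 3.81, 5.52 and 5.07 FPKM in vector and 2.34, 2.51 and 2.68 FPKM in S37A (log2 difference -0.71, SE 0.11, limma adjusted p = 0.00855). Uhrf1 has 4 transcript models and did not pass when the most abundant replaced their sum (limma adjusted p = 0.0933). Chaf1b, a subunit of the histone chaperone CAF-1, was at 3.36, 5.23 and 4.32 FPKM in vector and 2.28, 2.41 and 2.08 FPKM in S37A (log2 difference -0.69, SE 0.12, limma adjusted p = 0.0112). For both genes the S37A libraries lay well below the lowest vector library. Chaf1a, its larger partner, was at 5.37, 7.38 and 6.18 FPKM in vector and 4.11, 4.25 and 4.36 FPKM in S37A (log2 difference -0.47, SE 0.09, limma adjusted p = 0.0153). Dnmt1, the maintenance methyltransferase itself and not among the 44, stood at 71.6% of vector (limma adjusted p = 0.0125, and up to 0.145 over the alternatives).

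Of the 3 regulators of S-phase entry tested, Ccne1 passed and E2f1 and Ccne2 did not. E2f1, an activating E2F factor, was at 11.2, 11.9 and 12.1 FPKM in vector and 10.7, 10.3 and 10.8 FPKM in S37A. The groups did not overlap, but E2f1 did not pass (log2 difference -0.13, SE 0.04, limma adjusted p = 0.0519), and its difference was 0.03 when the most abundant of its 2 models replaced their sum. Ccne1, cyclin E1, fell from 8.48 ± 0.948 to 6.603 ± 0.607 FPKM (log2 difference -0.32, SE 0.09, limma adjusted p = 0.0369), a call lost under median-ratio scaling, quantile normalization and 7 other alternatives, left-out libraries included. Ccne2, cyclin E2, was listed at 2.51 and 2.77 FPKM in vector replicates 1 and 2, and at 0 in vector replicate 3 and every S37A library (limma adjusted p = 0.0825). All of the Ccne2 signal came from 1 of its 3 transcript models, whose exons overlap Ints8 on the other strand, and without vector replicate 3 the adjusted p was 0.000111. A listed 0 can be a failed estimate, so no fold is given. E2f2 was near 0 in both groups.

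**Figure D3:**
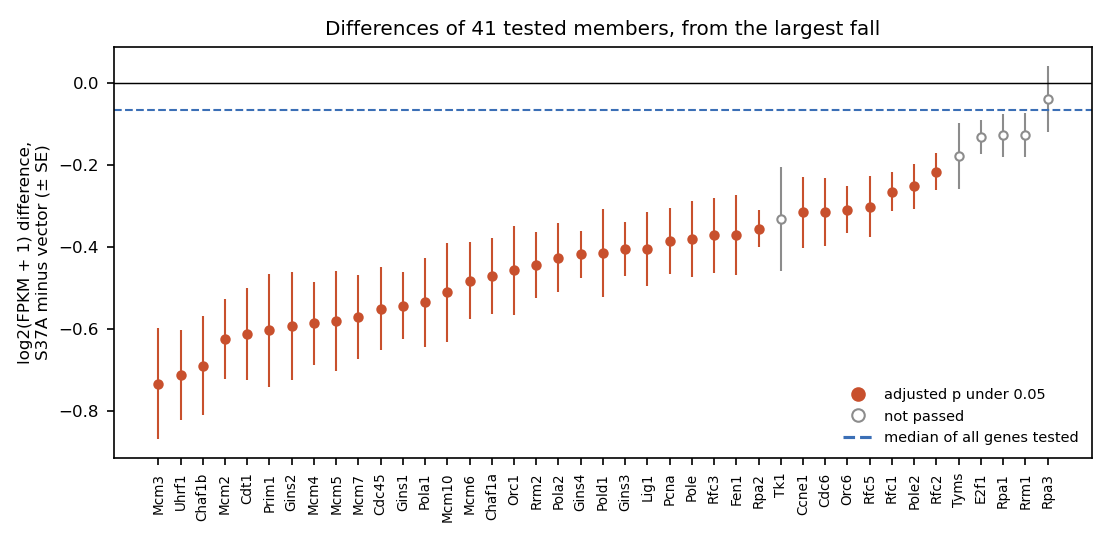
Difference in log2(FPKM + 1), S37A minus vector, of 41 tested members with its standard error (vertical axis), ordered from the largest fall; filled orange points have a limma adjusted p under 0.05, open grey points do not, and the dashed line is the median of all genes tested. Licensing and chromatin genes crowd the left end, down to -0.73 for Mcm3, and Rpa3, Rrm1, Rpa1, E2f1 and Tyms the right end.

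The size of the falls was modest but uncommon in these libraries. Of 41 members above 0 in every library, 29 stood at 75% of vector or less, as did 5.80% of 11931 such genes, and 11 stood at 60% or less, as did 1.24%. Only Mcm10 stood at 50% or less.

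The vector libraries differed among themselves in these genes, and in mitosis genes as well. Taken as the median over 41 members, the vector libraries stood at 85.1%, 114% and 99.5% of the vector mean, and the S37A libraries at 67.4%, 68.1% and 68.9%. Over 11931 genes the same medians were 99.2%, 101% and 99.7% in vector and 93.3%, 95.5% and 95.3% in S37A. Vector replicate 2 was the highest vector library for 36 of 42 members and for 43.8% of all genes, and vector replicate 1 the lowest for 38 members and for 40.4% of all genes. The median coefficient of variation over 41 members was 14.6% among vector libraries and 5.09% among S37A libraries, against 5.24% and 4.41% for all genes. For 33 mitosis genes it was 19.8% and 6.44%, with vector libraries at 80.9%, 119% and 98.7% of the vector mean. Even against its lowest vector library, the median member stood at 79.0% in S37A.

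Members that differed more between vector replicates 1 and 2 also tended to have the larger difference between S37A and vector replicate 3. Other pairings of the libraries were not compared in this way. Across 41 members the log2 ratio of vector replicate 2 to vector replicate 1 and the log2 ratio of the S37A mean to vector replicate 3, which share no library, had a Pearson r of -0.75 and a Spearman rho of -0.76. Over 11931 genes r was -0.35, and over 33 mitosis genes -0.31. These are correlations across genes of the same 6 libraries, and genes are not independent replicates. Rpa3 and E2f1 lay at the small end of both measures and Mcm10 at the large end. Rpa2 differed little between vector replicates 1 and 2 (0.06) and more between S37A and vector replicate 3 (-0.48).

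**Figure D4:**
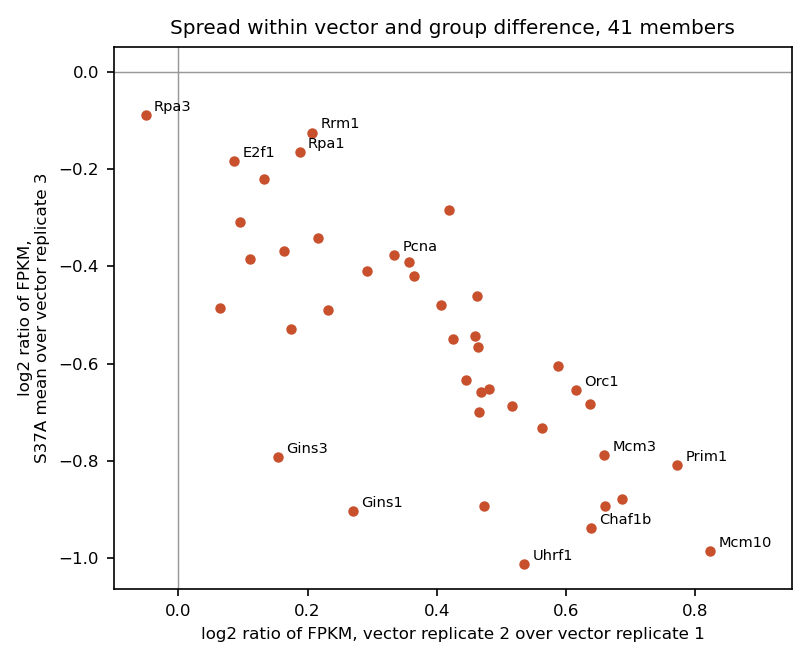
For each of 41 members, the log2 ratio of FPKM in vector replicate 2 to vector replicate 1 (horizontal axis) and the log2 ratio of the mean FPKM of S37A to vector replicate 3 (vertical axis); each point is a gene and some are named. Points run from Rpa3 at the upper left towards Mcm10 and Uhrf1 at the lower right, and all lie below 0 on the vertical axis.

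The number of members lower in S37A depended on which library was left out, although the direction rarely did. Without vector replicate 1, 40 of 42 passed. Without vector replicate 2 it was 27 and without vector replicate 3 it was 24. Without S37A replicate 1, 2 or 3 it was 21, 18 and 15. The number called lower among all 12022 genes tested, 2393 in the main fit, moved too. For all genes it was 2406, 1190 and 1186 without vector replicate 1, 2 or 3. It was 1338, 809 and 547 without S37A replicate 1, 2 or 3, the last being 4.55% of all genes. Cdt1, Mcm2, Mcm3, Mcm4, Cdc45, Gins1, Gins3, Gins4, Rpa2, Rrm2, Chaf1b and Uhrf1 passed with any 1 library left out. The other 23 lost their call at least once, with limma adjusted p-values up to 0.105, for Ccne1 without vector replicate 3. The difference of all members stayed negative in these 6 fits, except that of Rpa3 without S37A replicate 3.

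Other scalings of the libraries left most of the calls in place. With median-ratio scaling, which brings the median difference of all genes to -0.00, 31 members were lower and 0 higher, and the share of all genes lower was 7.86%, with 945 genes lower and 1265 higher in place of 2393 and 729. With quantile normalization it was 29 and 0 members, and 7.96% of all genes, with 957 lower and 1094 higher. The median of the members was -0.36 and -0.35 in these fits, and that of all genes -0.00 and -0.01. Pold1, Fen1, Rfc5 and Ccne1 lost their calls under both scalings, and Rfc3 and Cdc6 with quantile normalization. Exons of 10 members overlap a gene on the other strand, and the library preparation carries no strand mark. Reads of Mcm7, Gins2, Fen1, Rfc2, Rfc5, Orc6, Chaf1a and Tk1 may include some from Ap4m1, Cops6, Gse1, Tmem258, Lat2, Wsb2, Vps35, Ubxn6 and Afmid. Of the 33 tested members with no such overlap, 28 were lower.

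Other genes of replication moved the same way. From a list of 49 further genes of origin firing, fork protection, nucleotide supply and chromatin copying, 45 were tested. Of these, 33 were lower and 0 higher, and all 45 differences were negative, with a median log2 difference of -0.35. Of all 12022 genes tested, 19.9% were lower, 6.06% were higher and 8353 had a negative difference, with a median of -0.07. Cdc25a, the phosphatase that activates cyclin-dependent kinase at S-phase entry, fell from 5.89 ± 0.306 to 4.31 ± 0.256 FPKM, and Pole3, a small subunit of polymerase ε, from 39.7 ± 1.30 to 31.0 ± 1.97 FPKM (limma adjusted p = 0.00778 and 0.00799). Atad2, a chromatin ATPase, fell from 5.31 ± 0.908 to 3.13 ± 0.0200 FPKM and the origin subunit Orc5 from 7.62 ± 0.538 to 5.61 ± 0.339 FPKM (limma adjusted p = 0.00919 and 0.00942). Without vector replicate 3, S37A replicate 2 or S37A replicate 3 the number lower was 19, 18 and 14. The share of all genes lower in these fits was 9.87%, 6.73% and 4.55%.

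Of 11 genes tested of the E2F and retinoblastoma families, 4 were lower and 0 higher, where 19.9% of all genes were lower, with a median log2 difference of -0.16. Tfdp1 and Tfdp2, the dimerisation partners of E2F factors, stood at 85.7% and 78.0% of vector, the repressor E2f8 at 57.4% and the pocket protein gene Rbl1 at 74.4% (limma adjusted p = 0.0156, 0.0117, 0.0363 and 0.0389). Each of these 4 calls was lost in at least 1 alternative, with limma adjusted p up to 0.0609, 0.230, 0.102 and 0.116. Rb1, the retinoblastoma gene, was at 4.13 ± 0.418 and 4.53 ± 0.169 FPKM and did not pass (limma adjusted p = 0.230).

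Of 12 D-type cyclin, kinase and inhibitor genes, 3 were lower (25%) and 2 higher, where 19.9% of all genes were lower and 6.06% higher, and their median log2 difference was 0.02. The kinase genes Cdk6 and Cdk4, whose products inactivate the retinoblastoma protein, fell from 8.63 ± 0.918 to 5.64 ± 0.557 FPKM and from 180 ± 4.12 to 153 ± 7.11 FPKM (limma adjusted p = 0.00909 and 0.0119). Cdkn2b, an inhibitor of these kinases, rose from 103 ± 10.3 to 132 ± 3.26 FPKM (limma adjusted p = 0.0151), while its relative Cdkn2c fell from 4.80 ± 0.193 to 3.99 ± 0.0607 FPKM (limma adjusted p = 0.0166). The other gene that rose was Cdkn2a, from 88.5 ± 8.73 to 109 ± 1.67 FPKM (limma adjusted p = 0.0212), which is named after its values were seen. Over the alternatives the limma adjusted p reached 0.0531 for Cdkn2b, 0.117 for Cdkn2c and 0.924 for Cdkn2a, so these 3 calls did not hold in all of them.

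Mitosis genes fell to a like extent as the replication genes, and the difference between the sets was not tested. Of 34 tested, 27 were lower and 0 higher, where 19.9% of all genes tested were lower and 6.06% higher. Their median log2 difference was -0.48, against -0.42 for the members. The number of mitosis genes lower was not counted under other scalings or with a library left out. Bub1b, a spindle-checkpoint kinase, stood at 56.6%, Incenp at 64.3%, the mitotic kinase Cdk1 at 65.2% and the topoisomerase Top2a at 53.4% of vector (limma adjusted p = 0.00792, 0.00933, 0.0101 and 0.0102). Vector replicate 2 was the highest vector library for 32 of these 34 genes.

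**Figure D5:**
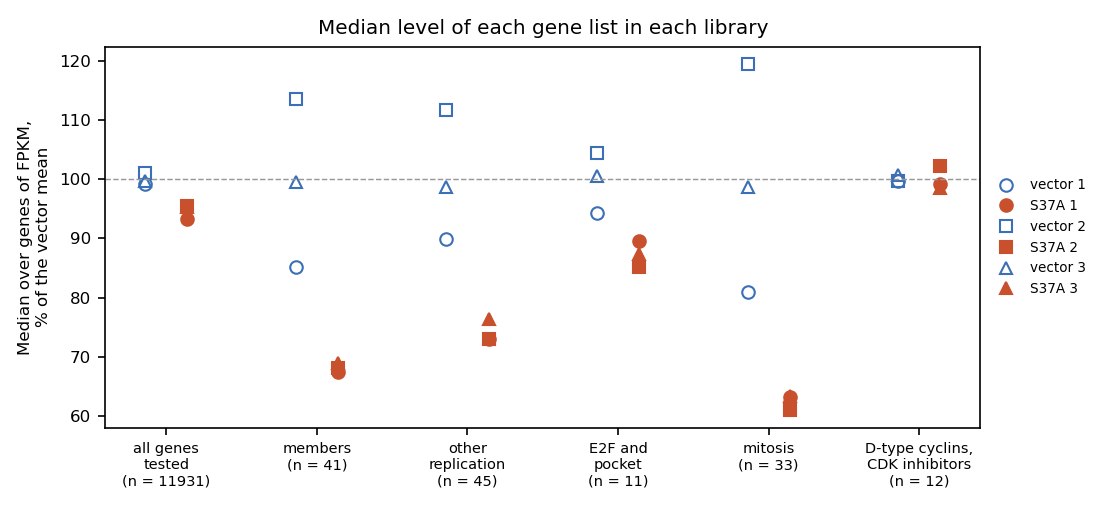
Median over the genes of each list of the FPKM in a library, as a percentage of each gene's vector mean (vertical axis), for 6 lists with the number of genes above 0 in every library; open blue symbols are vector and filled orange symbols S37A libraries. Members, other replication genes and mitosis genes have the 3 S37A libraries well below the vector libraries and a wide spread in vector, and D-type cyclin and inhibitor genes have all 6 libraries between 98.5% and 102%.

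Summed levels of markers of other cell types were low beside the stromal sum, but macrophage markers moved with the groups. Of 11 macrophage markers tested out of 15, 9 were higher in S37A and 0 lower, where 6.06% of all genes tested were higher. Csf1r and Cd14 did not pass (limma adjusted p = 0.0883 and 0.153). The summed level of the 15 was 24.4 to 30.9 FPKM in vector and 62.3 to 70.6 FPKM in S37A. Much of this sum was Lyz2 alone, at 12.9 to 16.3 FPKM in vector and 33.8 to 38.9 FPKM in S37A. The defining markers Adgre1, Ptprc, Aif1 and Mrc1 were below the expression filter, at means under 0.5 FPKM, and were not tested. Each had a higher mean in S37A. Adgre1 was at 0.0786 FPKM in vector and 0.235 in S37A, and Ptprc at 0.0948 and 0.138, with groups apart. The groups of Aif1 and Mrc1 overlapped. The part of any macrophages in the fall of the replication genes was not tested. Of 6 epithelial and 5 endothelial markers tested, 0 passed in either direction. Summed levels of these lists were 13.1 to 19.2 and 97.4 to 109.6 FPKM in vector and 10.5 to 20.5 and 92.9 to 96.5 FPKM in S37A. Not every single marker was low: endothelial Emcn had a mean of 72.4 FPKM over the 6 libraries, above stromal Pdgfrb at 50.7 FPKM.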

How the data were processed

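RNA of 3 vector and 3 S37A libraries of mouse prostate stromal cells was made into cDNA with the SMART-Seq v4 kit and sequenced on an Illumina HiSeq, per the labels' protocols. The tools named are TopHat, Cufflinks and bcl2fastq 1.8.3, and the build is mm10, per the submitters' processing notes. The deposited values are FPKM per transcript model with confidence bounds, per the file headers. The deposited coverage signal was not tested. Depth was inferred from interval widths of genes with 1 long model.

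FPKM was summed by symbol, and 5 genes with a failed status were dropped. The 12022 genes whose mean reached 0.5 FPKM were compared by limma 3.58.1 in R 4.3.3 as log2(FPKM + 1), unblocked and with a mean-variance trend. P-values were adjusted over these genes by Benjamini-Hochberg, with 0.05 as the threshold. This scale understates changes of genes with low FPKM, and percentages of vector are ratios of mean FPKM. The fit was tested on simulated data. Exact permutation tests used scipy 1.17.1. Positions are from GENCODE M21, and promoters from RefSeq.

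Members and lists were chosen with earlier results of these data known. All members are named, with values per library for the 10 largest falls and the most abundant gene of each role, and up to 4 genes with the smallest p of each other list. Gmnn, Dnmt1 and Rb1 were added for their roles, and Cdkn2a and the values per library of other members were added after the values were seen.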

Additional observations from a re-analysis of the deposited data

How the results depend on the processing

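The number of lower members, 35 in the main fit, stayed within 1.5 times of that under most alternatives. With a mean of at least 5 FPKM it was 19 of 22, where fewer members were tested and 21.2% of all genes were lower. It also moved further than 1.5 times without S37A replicate 1, 2 or 3, to 21, 18 and 15. Without vector replicate 1, 2 or 3 it was 40, 27 and 24, within that limit. Calls kept numbered 35 with a pseudocount of 0.1 or no trend, 31 with median-ratio scaling, 29 with quantile normalization, 28 with the most abundant transcript model and 26 with no filter. No alternative called a member higher. Of the other replication genes, 14 of 22 were lower with the filter at 5 FPKM, and 14 to 35 with 1 library left out. Of all genes, 945 were lower and 1265 higher with median-ratio scaling, 957 and 1094 with quantile normalization, 1193 and 442 with the replicate block, and 1491 were lower with the most abundant model. With 1 library left out, 547 to 2406 were lower and 276 to 744 higher. Differences that turned were 0.0558 for Mcm5 and 0.0343 for E2f1 with the most abundant model, and for Rpa3 0.0295 with median-ratio scaling, 0.0240 with quantile normalization and 0.0473 without S37A replicate 3. With the replicate block, 31 members were lower, without Pole, Pole2, Orc1 and Cdc6. Deviations from the group means of same-numbered libraries had correlations of -0.12, 0.02 and 0.10 over all genes. Those of unlike-numbered libraries ran from -0.126 to 0.097. With 3 libraries in a group, these values cannot decide whether the replicate numbers mark a shared culture or mouse. Depth limits Gins1, Gins3 and Pole2 most, with as few as 39, 76 and 77 inferred fragments in a library. The cause of each change was not tested.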
